A study of Mus musculus with 9 samples.

Results

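Axon guidance cues and their receptors were examined in cultured mouse sclerotome, the somite-derived mesenchyme that forms the vertebrae, the ribs and the intervertebral discs. The group comprised the semaphorins of classes 3 to 7, plexins, neuropilins, Eph receptors, ephrins, Slits, Robos, netrins and Unc5 receptors. Its members were chosen by gene symbol alone, as every probe set annotated with 1 symbol of these 9 families. This gave 148 probe sets for 67 genes, out of 45037 probe sets and 18193 named genes on the array. Of the 67 genes, 35 encode cues (20 semaphorins, 8 ephrins, 3 Slits and 4 netrins) and 32 encode receptors (9 plexins, 2 neuropilins, 13 Eph receptors, 4 Robos and 4 Unc5 receptors).

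Sclerotome was dissected from wild type embryos at E11.5, freed of the notochord, dissociated and plated at high density as micromass cultures. Cultures were left untreated, or were given 50 ng/ml BMP4 or 5 ng/ml TGF-β1, and RNA was taken after 8 hours. Each condition had 3 cultures, each hybridized to its own Affymetrix mouse GeneChip array from 50 ng of RNA amplified in consecutive rounds, 9 arrays in all. The sources differ on when the factors were added, since the sample labels place them after an overnight culture and the methods place them in the medium given once the cells had attached. All 9 cultures shared the same serum-containing medium, so the untreated group is free only of the added factor. The methods describe 3 separate set-ups of the experiment, but the labels do not say which arrays came from the same one.

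Axon guidance proteins steer growing axons and migrating cells by attraction or repulsion. Secreted class 3 semaphorins signal through neuropilins paired with plexins, whereas most other semaphorins bind plexins directly. Ephrins are held at the cell surface and signal to Eph receptors on touching cells, Slits signal to Robo receptors, and netrins signal to DCC and Unc5 receptors. In the trunk, the sclerotome is the tissue through which motor axons and neural crest cells travel. Cues made by its posterior part restrict both to the anterior part of each segment, so that spinal nerves form a segmented pattern. BMP4 and TGF-β1 are related secreted factors that act through different receptors and different Smad proteins.

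The deposited values were log2 signals that had been centred on the median of the 9 arrays for each probe set. A value of 0.50 therefore means a signal 0.50 log2 units above that probe set's own median, and nothing in it tells how strongly a gene is expressed. Levels were not compared between genes, and the presence or absence of any cell type marker could not be read. Each gene was represented by its most variable probe set over the 9 arrays, picked without regard to treatment. Differences are given as log2 units ± standard error with limma's adjusted p, and a probe set was called at an adjusted p under 0.05.

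The treatments were checked with known targets. Of 5 known BMP target genes, 4 passed the test upward in BMP4 cultures and 0 in TGF-β1 cultures, and of the 4 measured TGF-β target genes all 4 were called higher with TGF-β1. Fmod and Scx, among the latter, had already been reported as raised by TGF-β on these same arrays, so they are not an independent check. Among sclerotome markers, 6 of 10 (Pax1, Meox1, Meox2, Uncx, Tbx18 and Twist1) were lower with BMP4 and 0 of 10 were called with TGF-β1. Of all genes, 7.96% and 6.75% were called. With the replicate number as a block in the fit, 8 sclerotome markers were lower with BMP4 and 1 with TGF-β1. The latter was Pax1 (-0.51, limma adjusted p = 0.026 with the block). Of all 18193 genes, the block called 1316 and 1508 lower. Foxc2 and Nkx3-2 had positive differences with BMP4, 0.30 and 0.22, that were not called. Between the factors 4 sclerotome markers were called higher with TGF-β1 and 1 lower, Foxc2 (-0.46, limma adjusted p = 0.0394). The mean of this list lay between -0.49 and -0.45 on the BMP4 arrays, between 0.01 and 0.46 on the untreated arrays and between -0.01 and 0.17 on the TGF-β1 arrays. Endothelial markers gave 0 of 10 calls in each comparison, with array means between -0.06 and 0.10. Of 10 neuron markers, Nefl alone was called, at -1.17 with BMP4 and -1.68 with TGF-β1. A fit with the replicate number as a block called 3 lower with TGF-β1 (Nefl, Nefm and Dcx). With BMP4 the blocked fit called Nefl and Dcx lower and Elavl4 higher (0.82, limma adjusted p = 0.00606, against 0.125 without the block). The neuron list had array means of -0.06 to 0.22 without a factor, -0.36 to 0.20 with BMP4 and -0.59 to -0.04 with TGF-β1. Of 5 measured neural crest and Schwann cell markers, Fabp7 was higher with BMP4 (1.17 ± 0.11, limma adjusted p = 0.000402), and 3 (Fabp7, Ngfr and Erbb3) were lower with TGF-β1 than with BMP4. Sox10 and Foxd3 went the other way without a call, at -0.15 and -0.22 with BMP4 and at 0.12 and 0.30 between the factors. The array means of that list were 0.01 to 0.06 untreated, 0.18 to 0.32 with BMP4 and -0.32 to -0.07 with TGF-β1. Fabp7 by itself measured 1.21, 1.32 and 0.92 on the BMP4 arrays and so raised the BMP4 means. Single markers of other cell types were also called against untreated cultures without the block. With BMP4 these were Myf5 of skeletal muscle at 0.83 and Krt18 of epithelium at -1.29. With TGF-β1 they were Myh3 of muscle at -0.41 and Cd68 of macrophages at -0.46. All 8 muscle markers had negative differences with TGF-β1 (-0.43 to -0.06), as did 8768 of all 18193 genes. The blocked fit called 4 of the 8 lower with TGF-β1 (Myod1, Myf5, Pax7 and Myh3), beside 1508 of all genes. With BMP4 it called Myf5 higher and Myh3 lower. The part of these markers in the results that follow was not tested. In these bulk samples, fewer cells of one type and less RNA per cell cannot be told apart.

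With BMP4, most guidance genes that changed went down. Against untreated cultures, 37 of the 148 member probe sets were called, 11 higher and 26 lower, which was 25% of the members beside 5.44% of all probe sets (2.31% higher and 3.13% lower). By gene, 18 of 67 were called, 5 higher and 13 lower, or 26.9% beside 7.96% of all genes (3.45% higher and 4.51% lower). The median difference over the 67 genes was -0.13, beside 0.00 over all genes. The count of probe sets depended on single arrays: it was 24 without untreated replicate 1, 24 without untreated replicate 2, 21 without BMP4 replicate 1 and 19 without BMP4 replicate 2. The share of all probe sets fell with it, to 3.66%, 3.88%, 3.36% and 3.18%.

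Fewer members were called with TGF-β1. Against the same untreated cultures, 19 member probe sets were called, 7 higher and 12 lower, or 12.8% beside 4.43% of all probe sets (1.83% higher and 2.6% lower). With the replicate number as a block in the fit, 33 were called, while the share of all probe sets rose to 8.95%. By gene, 10 of 67 were called, 4 higher and 6 lower, or 14.9% beside 6.75% of all genes (2.54% higher and 4.21% lower), and the median difference over the 67 genes was -0.00.

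The 2 treatments were also compared directly, which is the test of whether the factors differ. Between TGF-β1 and BMP4 cultures 43 member probe sets were called, 24 higher and 19 lower with TGF-β1, or 29.1% beside 6.91% of all probe sets (3.41% higher and 3.49% lower). The count was 28 without TGF-β1 replicate 3, beside 4.28% of all probe sets, and 61 with the replicate block, beside 11.7%. By gene 18 of 67 were called, 11 higher and 7 lower with TGF-β1, or 26.9% beside 10.1% of all genes (4.73% higher and 5.38% lower). In the 3 comparisons together, 32 of the 67 genes had at least 1 called probe set and 28 were called by their most variable probe set, as were 15.8% of all genes. Both factors were set against the same untreated arrays, so their differences are not independent of each other.

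**Figure D1:**
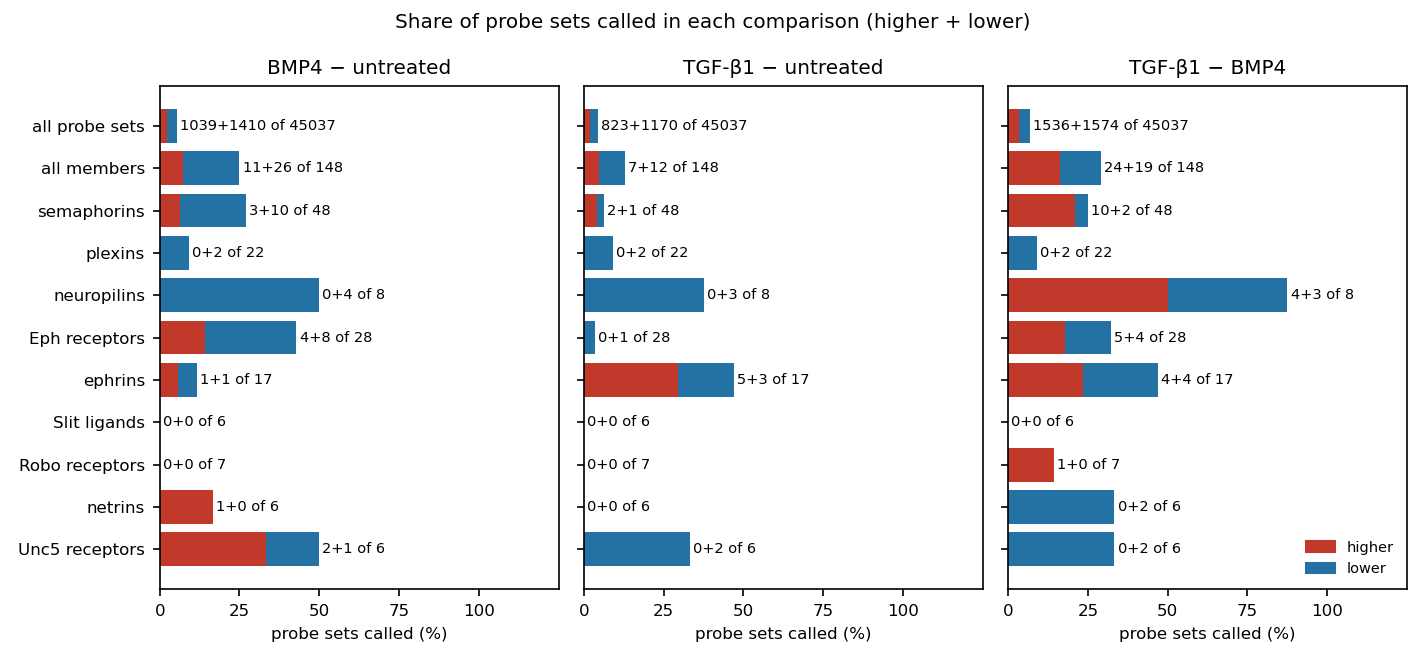
Percentage of probe sets called (horizontal axis) among all probe sets, all members and each of the 9 families (vertical axis), in the 3 comparisons, split into higher (red) and lower (blue). Counts are printed as higher + lower of the number tested, and members reached 25%, 12.8% and 29.1% where all probe sets reached 5.44%, 4.43% and 6.91%.

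Class 3 semaphorins, the secreted ligands of neuropilins, included the largest change among the cues. With BMP4, 3 of the 7 class 3 genes were lower and 1 was higher, while with TGF-β1 1 was higher and 0 were lower. Of all genes, 4.51% were lower and 3.45% higher with BMP4, and 2.54% were higher and 4.21% lower with TGF-β1. Sema3f, a repellent ligand of neuropilin-2, measured -0.19, 0.19 and 0.00 on untreated replicates 1 to 3, -1.57, -1.65 and -1.71 on the BMP4 arrays, and 0.09, 0.47 and 0.06 on the TGF-β1 arrays. The BMP4 arrays lay far below the other 6, which overlapped each other. Sema3f was 3.12-fold lower with BMP4 (-1.64 ± 0.13, limma adjusted p = 0.000133), differed by 0.21 ± 0.13 with TGF-β1 (adjusted p = 0.423), and was 3.6-fold higher with TGF-β1 than with BMP4 (adjusted p = 4.34e-05). Of its 3 probe sets 2 were called lower with BMP4, and the 3 spanned -1.64 to -0.15.

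Sema3a, a repellent ligand of neuropilin-1, measured 0.00, 0.07 and 0.00 untreated, -0.75, -0.64 and -0.92 with BMP4, and 0.19, 0.35 and 0.07 with TGF-β1. All 3 BMP4 arrays were below every other array. The fall with BMP4 was 0.79 ± 0.10 log2 units by limma (adjusted p = 0.00141), and 2 of its 3 probe sets were called. Sema3e, which binds plexin D1 without a neuropilin, measured 0.22, 0.32 and 0.05 untreated, -0.66, -0.67 and -0.69 with BMP4, and 0.00, 0.00 and 0.13 with TGF-β1. The BMP4 arrays again stood apart from the other 6 and hardly varied among themselves. Sema3e was 1.83-fold lower with BMP4 (-0.87 ± 0.09, adjusted p = 0.000447), with 3 of 4 probe sets called, and its difference with TGF-β1 was -0.16 ± 0.09 (adjusted p = 0.363). Between the factors, Sema3a was higher with TGF-β1 by 0.97 ± 0.10 (adjusted p = 0.000325) and Sema3e by 0.71 ± 0.09 (adjusted p = 0.000898). There 2 of 3 Sema3a probe sets were called but only 1 of 4 Sema3e probe sets, which ran from 0.16 to 0.71.

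Sema3c, a ligand of both neuropilins that is known for its role in the cardiac outflow tract, went the other way. It measured -0.70, -0.35 and -0.64 untreated, 0.10, 0.52 and -0.08 with BMP4, and 0.10, 0.53 and 0.00 with TGF-β1. The untreated arrays were the lowest, and the 2 treated groups overlapped. The gene was higher by 0.75 ± 0.18 with BMP4 (limma adjusted p = 0.0387) and by 0.78 ± 0.18 with TGF-β1 (adjusted p = 0.0388), and the factors differed by 0.03, with a 95% interval from -0.37 to 0.43. The call with BMP4 was lost without untreated replicate 1 or 3, BMP4 replicate 1 or 2, or TGF-β1 replicate 1 (adjusted p 0.062 to 0.126). That with TGF-β1 was lost without any untreated or TGF-β1 array or BMP4 replicate 1 (adjusted p 0.0503 to 0.129), but held with the replicate block (adjusted p = 0.00103). The other class 3 genes, Sema3b, Sema3d and Sema3g, were not called in any comparison. Sema3d differed by -0.52 with TGF-β1 (95% interval -0.88 to -0.15, adjusted p = 0.12), and its blocked adjusted p was 0.0244. Between the factors it differed by -0.45, with a blocked adjusted p of 0.033.

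Membrane-bound semaphorins changed in both directions. Sema6d, a transmembrane ligand of A plexins, measured 0.07, -0.07 and 0.00 untreated, 0.81, 0.85 and 0.85 with BMP4, and -0.31, -0.07 and -0.27 with TGF-β1. All BMP4 arrays were above the rest. It was 1.79-fold higher with BMP4 (0.84 ± 0.08, limma adjusted p = 0.00047), differed by -0.21 ± 0.08 with TGF-β1 (adjusted p = 0.199), and was 2.08-fold lower with TGF-β1 than with BMP4 (adjusted p = 8.36e-05). Its 4 probe sets all gave positive differences with BMP4, from 0.14 to 0.84, and 2 were called. Between the factors 2 of the 4 were called lower with TGF-β1, and the 4 ran from -1.05 to 0.19.

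Sema5b, a transmembrane semaphorin with thrombospondin repeats, measured 0.22, 0.00 and 0.31 untreated, -0.74, -0.92 and -0.32 with BMP4, and 0.04, 0.12 and 0.00 with TGF-β1. BMP4 values were lowest and varied more than the other groups. Sema5b was 1.79-fold lower with BMP4 (-0.84 ± 0.14, limma adjusted p = 0.00805), with both probe sets called. Sema4f, a transmembrane class 4 semaphorin, measured 0.00, 0.60 and -0.03 untreated, -0.57, -0.47 and -0.90 with BMP4, and 0.17, 0.16 and 0.19 with TGF-β1. Untreated replicate 2 was high and the BMP4 arrays were lowest. Sema4f was 1.78-fold lower with BMP4 (-0.83 ± 0.17, adjusted p = 0.0168), a call that was lost without BMP4 replicate 3 (adjusted p = 0.0536). The other of its 2 probe sets was not called, at -0.26 with BMP4 and 0.27 between the factors. Between the factors Sema5b was higher with TGF-β1 by 0.71 ± 0.14 (adjusted p = 0.0148) and Sema4f by 0.82 ± 0.17 (adjusted p = 0.0153). The Sema5b call between factors was lost without BMP4 replicate 1 or 2 or TGF-β1 replicate 2, with an adjusted p up to 0.0655, and without the 3 arrays numbered 2 (adjusted p = 0.103). The Sema4f call between factors was lost without BMP4 replicate 3 or TGF-β1 replicate 1 or 3, with an adjusted p up to 0.0575.

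TGF-β1 changed other semaphorins. Sema7a, a lipid-anchored semaphorin that binds plexin C1 and integrins, measured 0.08, -0.20 and 0.00 untreated, -0.20, -0.04 and -0.16 with BMP4, and 0.45, 0.50 and 0.71 with TGF-β1. The TGF-β1 arrays were the highest, and the other groups overlapped. Sema7a was 1.51-fold higher than untreated (0.59 ± 0.10, limma adjusted p = 0.0108) and 1.61-fold higher than with BMP4 (adjusted p = 0.00277), in 1 of its 2 probe sets. The first of these calls was lost without the 3 arrays numbered 2 (adjusted p = 0.0688). Sema4g, a transmembrane class 4 semaphorin, measured 0.37, 0.29 and 0.19 untreated, -0.11, 0.00 and 0.04 with BMP4, and -0.34, -0.20 and -0.27 with TGF-β1. The groups did not overlap, with the BMP4 arrays between the other groups. Sema4g was 1.47-fold lower with TGF-β1 (-0.55 ± 0.08, adjusted p = 0.00589, and 0.0505 without the arrays numbered 2), and its difference with BMP4 was -0.31 ± 0.08 (adjusted p = 0.0617). Sema4d, the class 4 ligand of plexin B1, was called only between the factors without the block, at 0.57 ± 0.11 (adjusted p = 0.0101, and 0.0777 without the arrays numbered 2). Only 1 of its 3 probe sets was called there, and the 3 ran from -0.09 to 0.57. With the replicate block Sema4d was also called against untreated cultures, where its difference with TGF-β1 was 0.34 (blocked adjusted p = 0.0385).

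**Figure D2:**
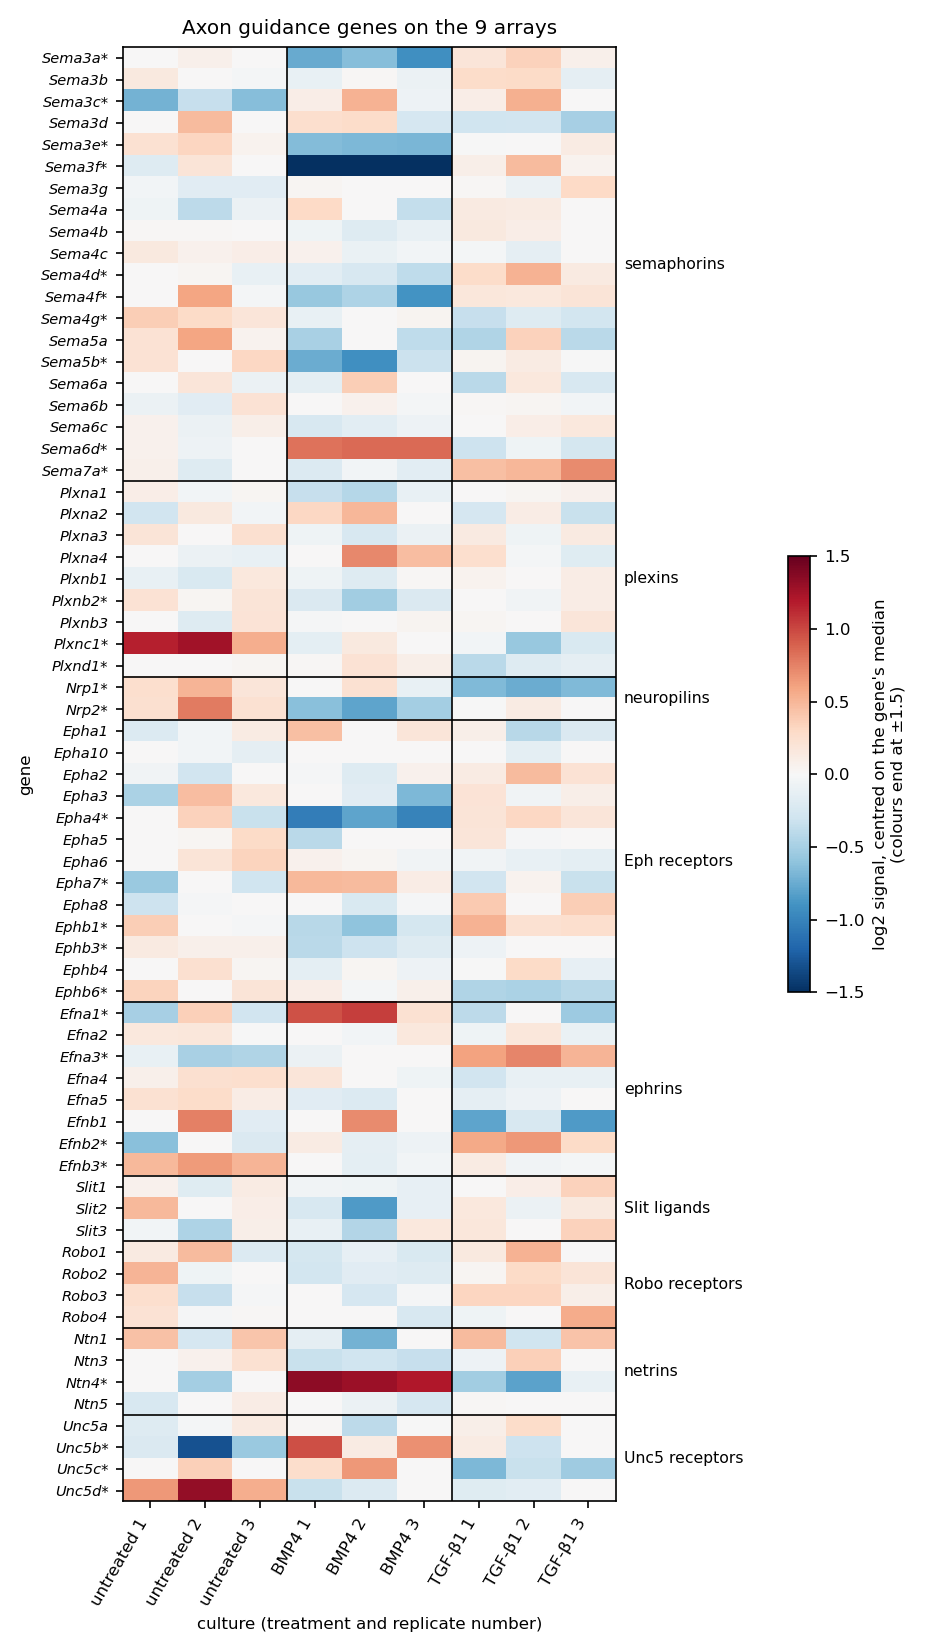
Centred log2 signal (colour, ending at ±1.5) of the most variable probe set of each of the 67 genes (vertical axis, by family) on the 9 arrays (horizontal axis, by treatment and replicate); an asterisk marks genes whose plotted probe set was called in at least 1 comparison. Sema3f, Epha4 and Nrp2 form dark blue blocks on the BMP4 arrays, Ntn4 and Sema6d red ones, and Nrp1 and Ephb6 blue ones on the TGF-β1 arrays.

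The 2 neuropilins, the co-receptors of class 3 semaphorins and of VEGF, were each called with 1 factor. Nrp2, through which Sema3f acts, measured 0.24, 0.78 and 0.23 untreated, -0.63, -0.79 and -0.51 with BMP4, and -0.01, 0.13 and 0.00 with TGF-β1. BMP4 values were lowest, untreated ones highest, and no groups overlapped. Nrp2 was 2.09-fold lower with BMP4 (-1.06 ± 0.14, limma adjusted p = 0.00247), and all 4 of its probe sets were called, from -1.06 to -0.67. With TGF-β1 its difference was -0.38 ± 0.14 (adjusted p = 0.193). It was higher with TGF-β1 than with BMP4 by 0.68 ± 0.14 (adjusted p = 0.0185), again in all 4 probe sets. The plotted probe set lost this last call when either of BMP4 replicates 1 and 2 or any TGF-β1 array was left out (adjusted p 0.0516 to 0.076).

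Nrp1, through which Sema3a acts, measured 0.25, 0.51 and 0.18 untreated, 0.00, 0.23 and -0.11 with BMP4, and -0.66, -0.74 and -0.67 with TGF-β1. The TGF-β1 arrays were well below all others, and the untreated and BMP4 arrays overlapped. Nrp1 was 2-fold lower with TGF-β1 (-1.0 ± 0.11, limma adjusted p = 0.00121), and 3 of its 4 probe sets were called. Its difference with BMP4 was -0.27 ± 0.11 (95% interval -0.52 to -0.02, adjusted p = 0.239). It was 1.66-fold lower with TGF-β1 than with BMP4 (-0.73 ± 0.11, adjusted p = 0.00338). The 2 neuropilins had differences of opposite sign between the factors, each past the threshold.

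Of the 9 plexins, the signalling receptors of semaphorins, 3 were called by their most variable probe set in any comparison, beside 15.8% of all genes. Plxnc1, the receptor of Sema7a, measured 1.17, 1.26 and 0.54 untreated, -0.15, 0.15 and 0.00 with BMP4, and -0.04, -0.57 and -0.23 with TGF-β1. The untreated arrays were all above the treated ones, which overlapped. Plxnc1 was 1.99-fold lower with BMP4 (-0.99 ± 0.19, limma adjusted p = 0.0149) and 2.41-fold lower with TGF-β1 (-1.27 ± 0.19, adjusted p = 0.00647), and the factors differed by -0.28 (95% interval -0.71 to 0.15). Only 1 of its 6 probe sets was called with BMP4 and 2 with TGF-β1, and the 6 ran from -1.27 to 0.01 with TGF-β1. The call with BMP4 was lost without untreated replicate 1 or 2 or BMP4 replicate 1 (adjusted p 0.0502 to 0.0668), and both calls were lost without the 3 arrays numbered 2 (adjusted p = 0.0654 with BMP4 and 0.0615 with TGF-β1).

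Plxnb2, a receptor of class 4 semaphorins, measured 0.22, 0.03 and 0.20 untreated and -0.22, -0.53 and -0.21 with BMP4, and differed by -0.47 ± 0.10 (limma adjusted p = 0.0267). This call was lost without untreated replicate 1 or 3 or BMP4 replicate 2 (adjusted p 0.0778 to 0.0932) and without the 3 arrays numbered 2 (0.0687). Between the factors Plxnb2 differed by 0.34, called only with the replicate block (adjusted p = 0.0212, against 0.0863). Plxnd1, the receptor of Sema3e, was called only between the factors, at -0.35 ± 0.09 (adjusted p = 0.0461), and leaving out any of the 9 arrays ended the call (adjusted p 0.0538 to 0.164). Of the 4 A plexins, none was called by its most variable probe set without the block. With it, those of Plxna2 (-0.43, adjusted p = 0.0288) and Plxna1 (0.32, adjusted p = 0.0393) were called between the factors. Without it, Plxna2 had 1 of 4 probe sets called, at -0.36 ± 0.09 between the factors (adjusted p = 0.03). Against untreated cultures, the block called 4 of the 9 plexin genes lower with BMP4, Plxnb2 and Plxnc1 among them, against 2 without it. Of all 18193 genes, 1316 were called lower there with the block, against 820.

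**Figure D3:**
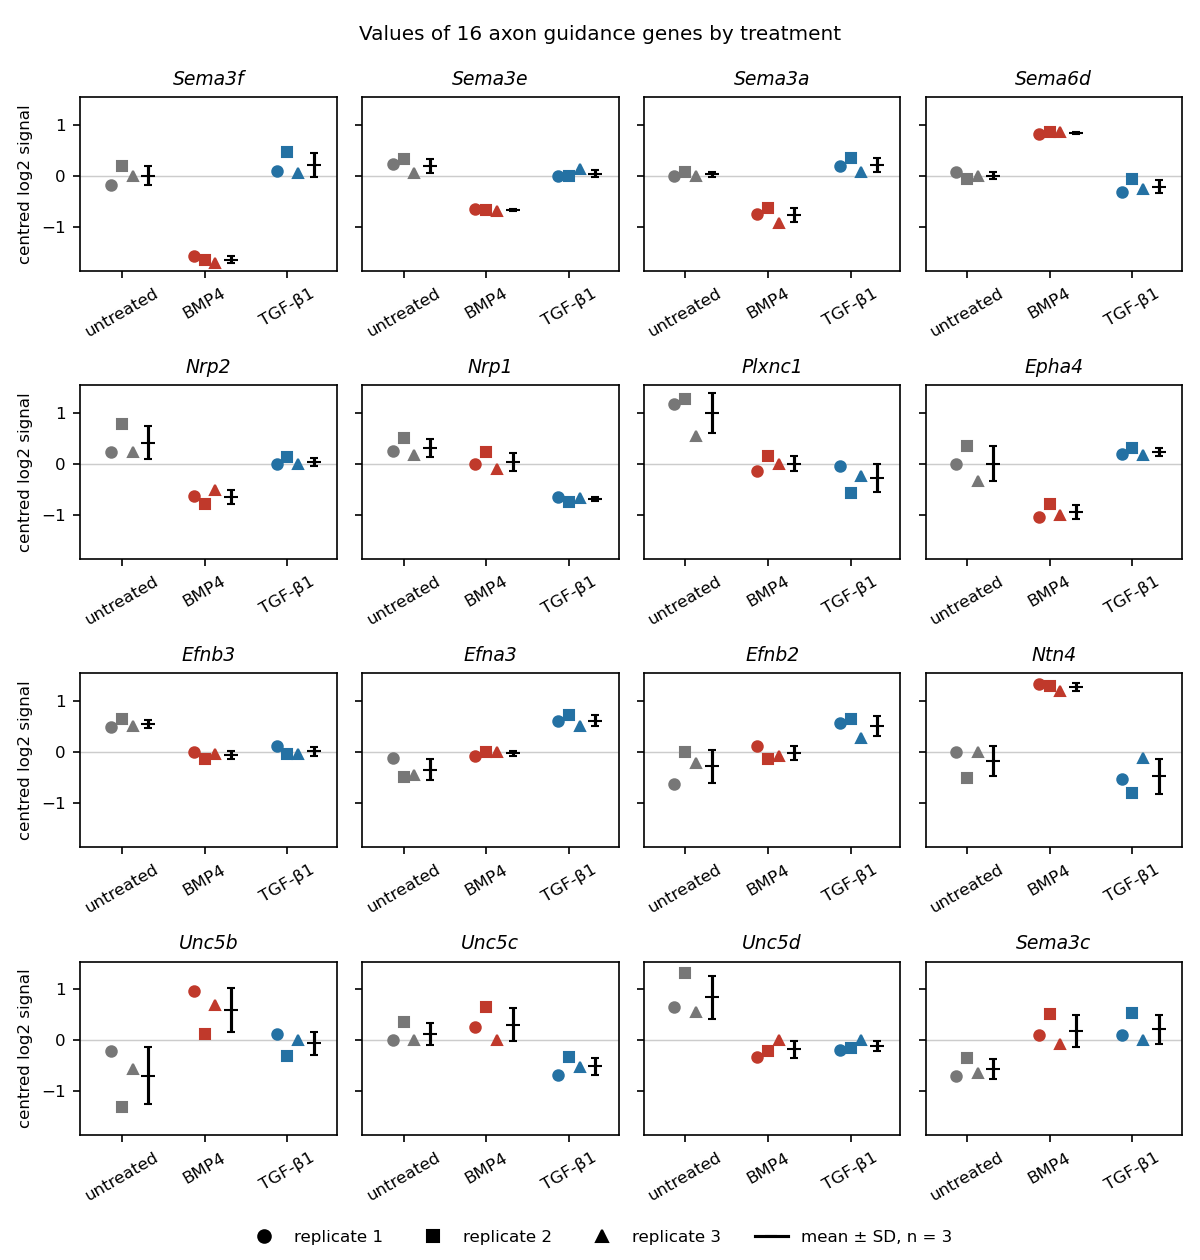
Centred log2 signal (vertical axis) on each array of 16 genes, for untreated (grey), BMP4 (red) and TGF-β1 (blue) cultures, with the replicate number as symbol and the mean ± SD of 3 arrays in black. Nrp2 sits lowest with BMP4 (-0.79 to -0.51) and Nrp1 with TGF-β1 (-0.74 to -0.66), while Sema3c, Plxnc1, Efnb3 and Unc5d show both treated groups on the same side of the untreated one.

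Among Eph receptors, the receptor tyrosine kinases of ephrins, 4 of 13 genes were called with BMP4, 1 higher and 3 lower, and 1 with TGF-β1. These were 30.8% and 7.69% of the family, beside 7.96% and 6.75% of all genes. Epha4, which binds ephrins of both classes, measured 0.00, 0.35 and -0.34 untreated, -1.04, -0.79 and -1.0 with BMP4, and 0.20, 0.31 and 0.18 with TGF-β1. The BMP4 arrays were below all others, and the untreated arrays spread around the TGF-β1 arrays. Epha4 was 1.93-fold lower with BMP4 (-0.95 ± 0.15, limma adjusted p = 0.00547) in 4 of 5 probe sets, and 2.25-fold higher with TGF-β1 than with BMP4 (adjusted p = 0.0013). Its difference between TGF-β1 and untreated cultures was 0.23 ± 0.15 (adjusted p = 0.461).

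Epha7, a receptor of A ephrins, measured -0.56, 0.00 and -0.30 untreated, 0.48, 0.47 and 0.11 with BMP4, and -0.28, 0.05 and -0.33 with TGF-β1. Its highest values were all on BMP4 arrays. It was higher with BMP4 by 0.64 ± 0.16 (limma adjusted p = 0.0486), and its 4 probe sets were all called, from 0.45 to 0.64. In the plotted probe set the call was lost without any of 6 arrays (untreated replicates 1 and 3, BMP4 replicates 1 and 2, TGF-β1 replicates 1 and 3), with an adjusted p up to 0.172, and without the 3 arrays numbered 2 (adjusted p = 0.0574). Between the factors 3 of its 4 probe sets were lower with TGF-β1, and the plotted one, at -0.55, was called only with the replicate block (adjusted p = 0.0184, against 0.0776 without it). Epha3, a receptor of A ephrins, was lower with BMP4 in 2 of 4 probe sets (-0.53 ± 0.12, adjusted p = 0.0362, and -0.45 ± 0.10, adjusted p = 0.031), while its most variable probe set differed by -0.33 ± 0.23 (adjusted p = 0.551).

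The EphB receptors, which bind B ephrins, had 4 genes among the members, Ephb1, Ephb3, Ephb4 and Ephb6. All 4 had negative differences with BMP4, as did 44 of the 67 members and 8977 of all 18193 genes. Ephb4 and Ephb6 differed by only -0.15 and -0.13. Of the 4, 2 were called, beside 7.96% of all genes. Ephb1 measured 0.37, 0.00 and -0.01 untreated, -0.42, -0.60 and -0.27 with BMP4, and 0.52, 0.23 and 0.25 with TGF-β1. The BMP4 arrays were the lowest. Ephb1 was lower with BMP4 by limma (-0.55 ± 0.13, adjusted p = 0.0409), a call that held only without BMP4 replicate 3 or TGF-β1 replicate 1 among the 9 left-out arrays (adjusted p up to 0.149), and higher with TGF-β1 than with BMP4 (0.76 ± 0.13, adjusted p = 0.00701). Without the 3 arrays numbered 2 the adjusted p of these Ephb1 differences were 0.18 and 0.0541. Ephb3 measured 0.13, 0.08 and 0.07 untreated and -0.41, -0.31 and -0.20 with BMP4. All BMP4 values lay below the untreated ones, and the difference was -0.40 ± 0.08 (adjusted p = 0.0139). The Ephb3 call was lost without untreated replicate 1 or BMP4 replicate 1 or 2 (adjusted p 0.0525 to 0.0568) and without the 3 arrays numbered 2 (0.125). Ephb3 differed by 0.28 between the factors, called only with the block (adjusted p = 0.0443, against 0.0557).

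Ephb6, an Eph receptor without kinase activity, measured 0.33, 0.00 and 0.19 untreated, 0.10, -0.03 and 0.07 with BMP4, and -0.45, -0.48 and -0.41 with TGF-β1. The TGF-β1 arrays were lowest and close together. Ephb6 was 1.54-fold lower with TGF-β1 (-0.62 ± 0.09, limma adjusted p = 0.00586) and also lower than with BMP4 (-0.49 ± 0.09, adjusted p = 0.00985). With BMP4 its difference from untreated cultures was -0.13 ± 0.09 (adjusted p = 0.568).

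Of the 8 ephrin genes, 2 were higher and 1 was lower with TGF-β1, or 37.5% beside 6.75% of all genes. With BMP4 1 was lower, or 12.5% beside 7.96%, and the counts themselves were not tested against each other. Of 17 ephrin probe sets, 8 were called with TGF-β1, 5 higher (2 of Efna3 and 3 of Efnb2) and 3 lower, and 2 with BMP4, beside 4.43% and 5.44% of all probe sets. Efna3, a lipid-anchored A ephrin, measured -0.11, -0.49 and -0.45 untreated, -0.09, 0.00 and 0.00 with BMP4, and 0.61, 0.73 and 0.51 with TGF-β1. The TGF-β1 arrays were above all others. Efna3 was 1.95-fold higher with TGF-β1 (0.96 ± 0.11, limma adjusted p = 0.00127), in both probe sets, and 1.56-fold higher than with BMP4 (adjusted p = 0.00559, and 0.0523 without the arrays numbered 2). Its difference with BMP4 was 0.32 ± 0.11 (adjusted p = 0.14).

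The B ephrins, transmembrane ligands, went different ways. Efnb2, known for marking arteries and for setting somite boundaries, measured -0.63, 0.00 and -0.22 untreated, 0.13, -0.13 and -0.08 with BMP4, and 0.57, 0.66 and 0.28 with TGF-β1. The TGF-β1 arrays were the highest and the other groups overlapped. Efnb2 was 1.73-fold higher with TGF-β1 (0.79 ± 0.16, limma adjusted p = 0.0227), in 3 of 4 probe sets, and the call of the plotted probe set was lost without untreated replicate 1 or TGF-β1 replicate 1 or 2 (adjusted p up to 0.0857), and without the 3 arrays numbered 2 (0.0582). Efnb3 measured 0.49, 0.64 and 0.51 untreated, 0.00, -0.14 and -0.04 with BMP4, and 0.12, -0.05 and -0.03 with TGF-β1. Both treated groups were below the untreated one and overlapped each other. Efnb3 was called lower, at -0.61 ± 0.08 with BMP4 (adjusted p = 0.00234) and -0.54 ± 0.08 with TGF-β1 (adjusted p = 0.00673, and 0.0712 without the arrays numbered 2).

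Efnb1 measured 0.00, 0.76 and -0.17 untreated, 0.00, 0.71 and 0.00 with BMP4, and -0.79, -0.24 and -0.85 with TGF-β1. Replicate 2 was the highest in every group, and the TGF-β1 arrays were the lowest. The difference with TGF-β1 was -0.82 ± 0.27, which did not pass the threshold without the replicate block (limma adjusted p = 0.131) and did with it (adjusted p = 0.000852). The same held between the factors, where Efnb1 differed by -0.86 (adjusted p = 0.0963, and 0.000325 with the block). The other 2 of its 3 probe sets were lower with TGF-β1 without the block, at -0.58 ± 0.11 (adjusted p = 0.0163) and -0.70 ± 0.12 (adjusted p = 0.0116). Efna1, a lipid-anchored A ephrin, measured -0.50, 0.36 and -0.29 untreated, 0.96, 1.04 and 0.23 with BMP4, and -0.40, 0.00 and -0.54 with TGF-β1. The BMP4 arrays overlapped the untreated ones at 1 point, untreated replicate 2. Its most variable probe set differed by 0.88 ± 0.26 with BMP4 (adjusted p = 0.089, and 0.00971 with the block), and its other probe set was higher by 0.86 ± 0.19 (adjusted p = 0.03). It was lower with TGF-β1 than with BMP4, at -1.05 ± 0.26 (adjusted p = 0.0384), a call lost without untreated replicate 3, BMP4 replicate 1 or 2, or TGF-β1 replicate 1 or 3 (adjusted p 0.0551 to 0.145).

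**Figure D4:**
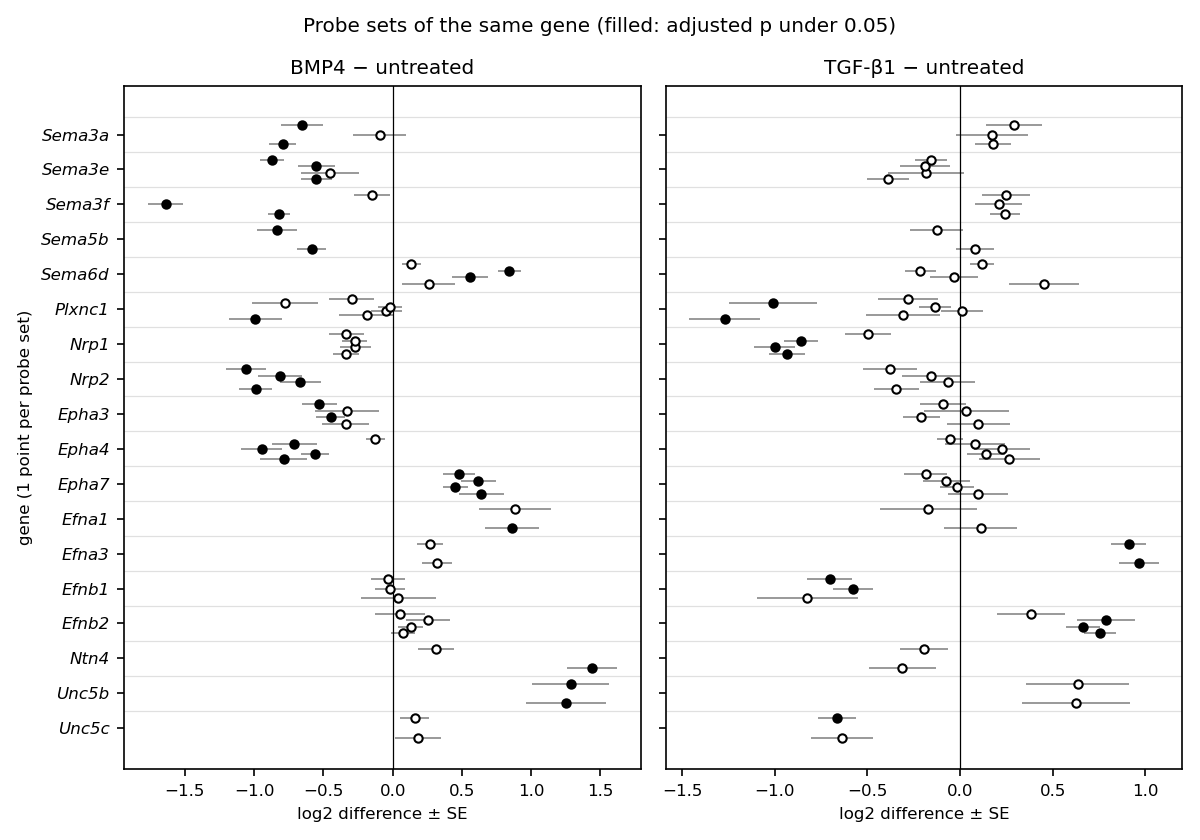
Log2 difference ± SE from untreated cultures (horizontal axis) for every probe set of 18 genes (vertical axis), with BMP4 at the left and TGF-β1 at the right, filled where the adjusted p was under 0.05. The 4 Nrp2 and the 4 Epha7 probe sets were all called with BMP4, whereas Plxnc1 had 1 called probe set of 6 with BMP4 and 2 with TGF-β1.

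Of the 4 netrins, only Ntn4 was called without the replicate block. With it, 2 netrin genes were also called lower with BMP4 than in untreated cultures. Ntn4, a laminin-related secreted protein of basement membranes, measured 0.00, -0.51 and 0.00 untreated, 1.34, 1.28 and 1.20 with BMP4, and -0.52, -0.80 and -0.11 with TGF-β1. The BMP4 arrays were more than 1 log2 unit above all others. Ntn4 was 2.71-fold higher with BMP4 (1.44 ± 0.18, limma adjusted p = 0.00158), differed by -0.31 ± 0.18 with TGF-β1 (adjusted p = 0.39), and was 3.37-fold lower with TGF-β1 than with BMP4 (adjusted p = 0.000364). Its other probe set differed by 0.31 ± 0.13 with BMP4 (adjusted p = 0.252) and was lower with TGF-β1 than with BMP4 (-0.51 ± 0.13, adjusted p = 0.0454). Ntn1, the classical attractant of the ventral midline, was not called without the block. Its values were 0.44, -0.26 and 0.42 untreated, -0.13, -0.71 and 0.00 with BMP4, and 0.47, -0.30 and 0.43 with TGF-β1, with replicate 2 the lowest in every group. Its difference with BMP4 was -0.48 ± 0.26 (95% interval -1.07 to 0.10, adjusted p = 0.409). Between the factors Ntn1 differed by 0.48 ± 0.26 (adjusted p = 0.352, and 0.00331 with the replicate block), and Ntn3 by 0.42 (adjusted p = 0.0579, and 0.0356 with the block).

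The Unc5 receptors, which mediate repulsion by netrins, gave 3 genes of 4 with a call in any comparison, beside 15.8% of all genes. Unc5b, also known in endothelium, measured -0.22, -1.31 and -0.56 untreated, 0.97, 0.12 and 0.68 with BMP4, and 0.13, -0.31 and 0.00 with TGF-β1. Replicate 2 was the lowest of each group, and the BMP4 arrays lay above all untreated arrays. Unc5b was 2.44-fold higher with BMP4 (1.28 ± 0.28, limma adjusted p = 0.0252), in both probe sets, and the call was lost without untreated replicate 2 or 3 or BMP4 replicate 1 or 3 (adjusted p 0.0526 to 0.103). Its difference with TGF-β1 was 0.63 ± 0.28 (adjusted p = 0.255), and with the replicate block this was called (adjusted p = 0.0122), as was the difference of -0.65 between the factors (adjusted p = 0.00763). None of the 10 endothelial markers was called in the same comparisons without the block, and with it 1 was, Kdr, higher with BMP4 than in untreated cultures by 0.49 (adjusted p = 0.0205, against 0.224).

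Unc5d, which also binds FLRT proteins, measured 0.65, 1.32 and 0.54 untreated, -0.33, -0.21 and 0.00 with BMP4, and -0.19, -0.15 and 0.00 with TGF-β1. The untreated arrays were all above the treated ones, which overlapped. Unc5d was 2.02-fold lower with BMP4 (-1.02 ± 0.18, limma adjusted p = 0.00965) and 1.93-fold lower with TGF-β1 (-0.95 ± 0.18, adjusted p = 0.0178). The second call was lost without any 1 of the TGF-β1 arrays (adjusted p 0.0524 to 0.072) or without the 3 arrays numbered 2 (0.0582), and held with the replicate block (adjusted p = 0.0117). Unc5c measured 0.00, 0.36 and 0.00 untreated, 0.26, 0.65 and 0.00 with BMP4, and -0.68, -0.34 and -0.54 with TGF-β1. The TGF-β1 arrays were the lowest and the others overlapped. Its difference with TGF-β1 was -0.64 ± 0.17 (adjusted p = 0.0637, and 0.00558 with the block), and its other probe set was lower without the block (-0.66 ± 0.10, adjusted p = 0.0074). Unc5c was 1.77-fold lower with TGF-β1 than with BMP4 in both probe sets, and in the plotted one the call was lost without BMP4 replicate 1 or TGF-β1 replicate 1 or 3 (adjusted p 0.0527 to 0.0642).

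Slits and Robos gave no call against untreated cultures without the replicate block. With it, Slit3, a secreted Slit like Slit2, was called higher with TGF-β1 than untreated, by 0.31 (limma adjusted p = 0.0441, against 0.379 without the block), and than with BMP4, by 0.30 (0.0416, against 0.386). Slit2, a secreted repellent, measured 0.48, 0.00 and 0.10 untreated, -0.24, -0.85 and -0.12 with BMP4, and 0.15, -0.08 and 0.14 with TGF-β1. The BMP4 arrays were lowest, BMP4 replicate 2 most of all. Its difference with BMP4 was -0.60 ± 0.19 (95% interval -1.02 to -0.18, limma adjusted p = 0.113, and 0.0194 with the block). Between the factors Slit2 differed by 0.48, where the block gave an adjusted p of 0.0413 against 0.188 without it. The 4 Robo genes, receptors of Slits, had differences between -0.36 and -0.06 with BMP4, between 0.02 and 0.28 with TGF-β1 and between 0.24 and 0.43 between the factors. Robo1 had 1 of 3 probe sets called, higher with TGF-β1 than with BMP4 by 0.56 ± 0.12 (adjusted p = 0.022), while its most variable probe set differed by 0.43 (adjusted p = 0.195, and 0.0345 with the block).

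Only 4 genes were called with both factors against untreated cultures, Sema3c higher and Plxnc1, Efnb3 and Unc5d lower, the same way with each. They were 5.97% of the 67 genes, beside 2.28% of all genes. They made up 22.2% of the members' BMP4 calls and 40% of their TGF-β1 calls, and over all genes these shares were 28.6% and 33.7%. By role, BMP4 gave 9 calls among 35 cue genes, 3 higher and 6 lower, and 9 among 32 receptor genes, 2 higher and 7 lower. Of all genes, 7.96% were called with BMP4 (3.45% higher and 4.51% lower). TGF-β1 gave 6 calls among cue genes, 4 higher and 2 lower, and 4 among receptor genes, all lower. Of all genes, 6.75% were called with TGF-β1 (2.54% higher and 4.21% lower). Whether cues and receptors differed in direction was not tested.

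**Figure D5:**
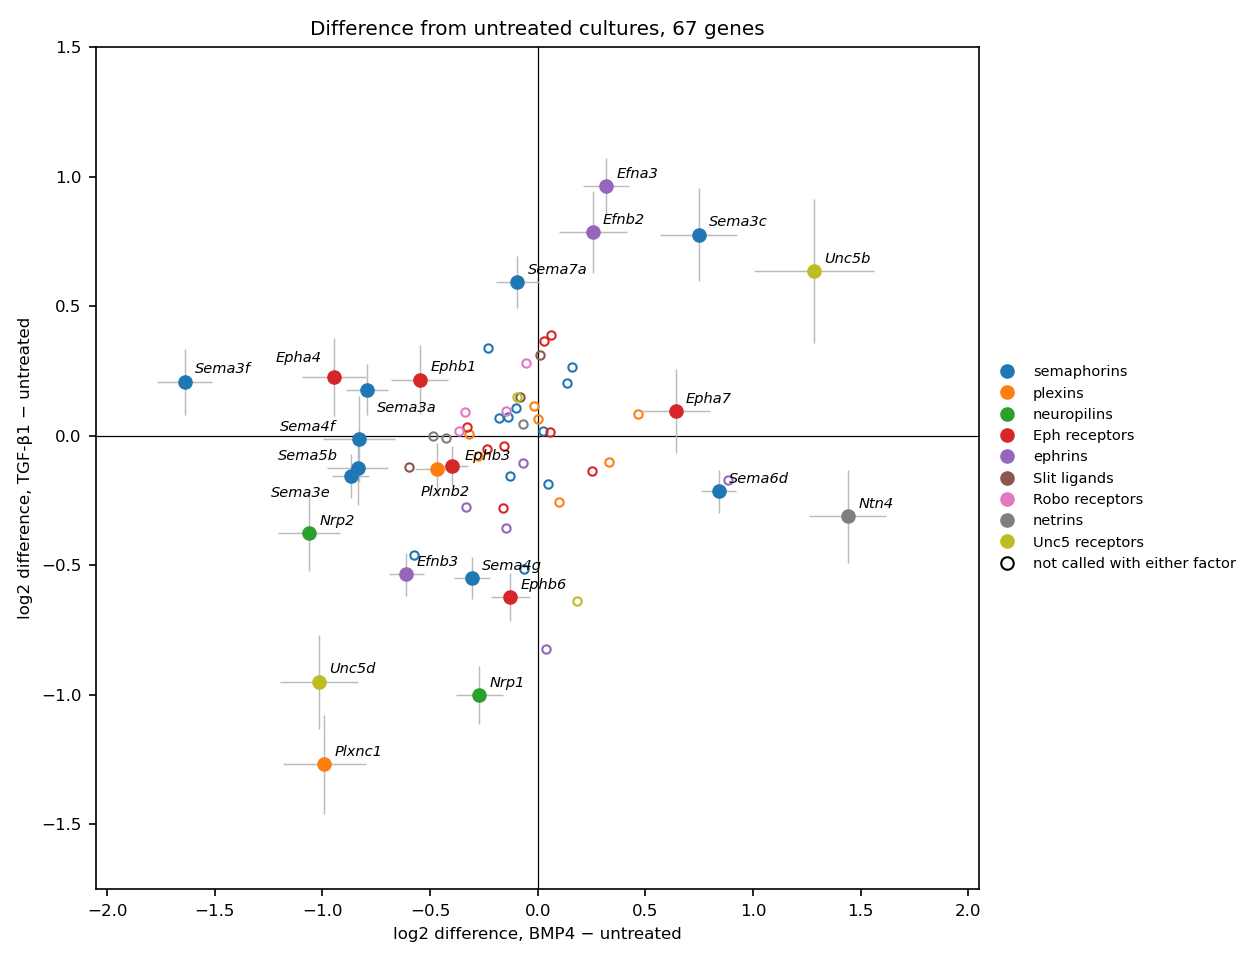
Log2 difference with BMP4 (horizontal axis) against log2 difference with TGF-β1 (vertical axis), both from the same untreated arrays, for the 67 genes coloured by family. Filled points with their standard errors were called with at least 1 factor; Sema3f (-1.64) and Ntn4 (1.44) lie at the ends of the BMP4 axis, and Plxnc1 (-1.27) and Efna3 (0.96) at those of the TGF-β1 axis.

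The remaining 35 genes had no called probe set without the block. Their differences ran from -0.60 to 0.47 with BMP4, from -0.52 to 0.39 with TGF-β1 and from -0.45 to 0.48 between the factors. The 95% intervals reached from -1.07 to 0.84 with BMP4, from -0.96 to 0.70 with TGF-β1 and from -0.82 to 1.07 between the factors. They held a 2-fold change for 3 genes with BMP4 (Ntn1, Sema5a and Slit2), for 0 with TGF-β1 and for 1 between the factors (Ntn1). They included Sema4a, Sema4b, Sema4c, Sema6a, Sema6b and Sema6c, the plexins A1, A3, A4, B1 and B3, Epha1, Epha2, Epha5, Epha6, Epha8, Epha10 and Ephb4, and the ephrins Efna2, Efna4 and Efna5. Sema5a differed by -0.58 ± 0.22 with BMP4 (limma adjusted p = 0.205) and by -0.46 ± 0.22 with TGF-β1 (adjusted p = 0.3, and 0.0221 with the replicate block).

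Partner genes of the same pathways were examined from lists. Among 16 surface and secreted partners 2 were higher and 4 lower with BMP4, and 1 was higher and 3 lower with TGF-β1, or 37.5% and 25% beside 7.96% and 6.75% of all genes. Ntng1, a membrane-anchored netrin relative, was higher with BMP4 (1.71 ± 0.13, limma adjusted p = 0.000133), with a difference of 0.03 with TGF-β1. Flrt3, a ligand of Unc5 receptors, was lower with both factors, at -0.83 ± 0.07 (adjusted p = 0.000245) and -0.56 ± 0.07 (adjusted p = 0.00303), as was Flrt1, at -0.70 and -0.73. Dcc, the attractive netrin receptor, was lower, at -0.47 ± 0.11 with BMP4 (adjusted p = 0.0327) and -0.51 ± 0.11 with TGF-β1 (adjusted p = 0.0279). Among 45 measured intracellular partners 2 were higher and 7 lower with BMP4, and 2 were higher and 3 lower with TGF-β1, or 20% and 11.1% beside the same shares of all genes. Those lower with BMP4 included Srgap3, a partner of Robo receptors (-0.83 ± 0.14, limma adjusted p = 0.00718), Ablim1, an actin-binding protein (-0.73 ± 0.08, adjusted p = 0.000664), and Dpysl4 and Dpysl5, of the family that relays semaphorin signals (-0.68 and -0.67). Mical1, an actin-oxidizing enzyme downstream of plexins, was higher with BMP4 by 0.95 ± 0.15 (limma adjusted p = 0.00457).

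The sequence just upstream of the start site was available for 58 of the 67 genes, in 74 windows of 250 bases from RefSeq (GRCm38.p6). Member windows had a median GC content of 64.4%, beside 52.4% over 32851 windows of all genes. The letters GGCGC, part of a site bound by BMP-activated Smads, were present on either strand in 58.1% of member windows and 32% of all windows. The letters CAGAC, which contain the core of the general Smad element, were present in 51.4% and 42.2%, and TATAAA in 2.7% and 12.4%. GGCGC is itself made of G and C, and the windows were not matched for base content. To show such windows beside the responses, the window of the gene with the smallest adjusted p in each direction was taken for each factor among genes with 1 window, which gave Ntn4 (higher with BMP4), Sema3e (lower with BMP4), Sema7a (higher with TGF-β1) and Nrp1 (lower with TGF-β1). The Ntn4 window lies at chr10:93640799-93641048, that of Sema3e at chr5:14025026-14025275, that of Sema7a at chr9:57939862-57940111 and that of Nrp1 at chr8:128358823-128359072, all on the plus strand. Letters run 5′ to 3′ and end next to the start site, with capitals marking GGCGC or CAGAC or their reverse complements.
Ntn4: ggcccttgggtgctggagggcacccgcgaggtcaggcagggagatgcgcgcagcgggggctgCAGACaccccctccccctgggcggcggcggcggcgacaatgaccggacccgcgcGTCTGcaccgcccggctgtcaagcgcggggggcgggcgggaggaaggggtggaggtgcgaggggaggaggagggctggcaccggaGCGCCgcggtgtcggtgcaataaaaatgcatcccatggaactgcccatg
Sema3e: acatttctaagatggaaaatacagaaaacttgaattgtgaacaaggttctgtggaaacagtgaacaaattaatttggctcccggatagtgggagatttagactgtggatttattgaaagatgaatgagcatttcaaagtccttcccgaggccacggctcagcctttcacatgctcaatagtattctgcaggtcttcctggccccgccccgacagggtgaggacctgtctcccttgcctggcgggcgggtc
Sema7a: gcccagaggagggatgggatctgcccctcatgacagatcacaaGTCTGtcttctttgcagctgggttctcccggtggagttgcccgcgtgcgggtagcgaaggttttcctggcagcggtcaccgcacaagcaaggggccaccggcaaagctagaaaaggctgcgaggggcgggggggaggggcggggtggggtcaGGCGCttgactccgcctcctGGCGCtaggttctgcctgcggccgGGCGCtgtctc
Nrp1: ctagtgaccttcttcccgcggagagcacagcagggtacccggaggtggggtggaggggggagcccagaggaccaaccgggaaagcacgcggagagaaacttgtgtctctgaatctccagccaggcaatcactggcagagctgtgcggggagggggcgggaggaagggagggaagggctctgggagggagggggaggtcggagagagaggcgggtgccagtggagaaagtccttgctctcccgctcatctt
The Ntn4 window held 1 GGCGC and 2 CAGAC matches and that of Sema7a held 3 and 1, while those of Sema3e and Nrp1 held none. A match describes letters and is not evidence of binding.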

How the data were processed

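Expression in 9 sclerotome micromass cultures (3 groups of 3) was measured on Affymetrix mouse GeneChip arrays. The authors subtracted background and normalized the arrays by RMA in GeneSpring with default settings (version not given in the sources used here), and deposited log2 values. All 45101 probe sets had a median of 0 over the 9 arrays (tolerance 1e-06), with values from -3.83 to 4.01, so the deposited values carry no expression level and could not be filtered on low signal. This leaves differences between groups unchanged.

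After 64 control probe sets were left out, limma 3.58.1 in R 4.3.3 was run on the other 45037 probe sets over all 9 arrays, with 3 two-sided comparisons and Benjamini-Hochberg adjustment, called at an adjusted p under 0.05. Gene names came from the platform's annotation, where 34945 probe sets had 1 symbol, 932 several and 9160 none. All 148 member probe sets were found in RefSeq by Entrez ID, and 0 had changed symbol. Named in the text are genes with a called probe set, genes with a difference of at least 1 log2 unit, and 1 gene from each family without either. Other genes were added as families were described. The members and lists were chosen with earlier results of these data known. Motifs were searched, and figures drawn, with Python 3.11.15.

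Replicates with the same number had r of deviations over probe sets of 0.14 to 0.49 between TGF-β1 and untreated arrays. They had 0.29 to 0.50 between TGF-β1 and BMP4 arrays and -0.05 to 0.50 between BMP4 and untreated arrays. Arrays with different numbers gave -0.39 to 0.20, -0.35 to 0.003 and -0.49 to 0.36 in the same order. Untreated replicate 1 deviated more like TGF-β1 replicate 3 (0.20) than like TGF-β1 replicate 1 (0.14). Only between TGF-β1 and BMP4 arrays did all same-number pairs exceed the others, so the pairing is not settled. Blocked values are printed for the first 2 comparisons where they changed the call of a gene's most variable probe set. For BMP4 against untreated cultures only some are printed. By gene, the block called 6 members higher and 20 lower there, against 5 and 13 without it. No 2 arrays were identical. With 3 arrays a group, their number limits the precision. The procedure was tested on simulated data. Alternatives were the replicate block, leaving out arrays, other normalization, array weights, fewer groups or probe sets, and the methods' test of unequal variances.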

Additional observations from a re-analysis of the deposited data

How the results depend on the processing

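With the replicate number as a block, 49 member probe sets were called with BMP4 against untreated cultures (37 without it), 33 with TGF-β1 (19) and 61 between the factors (43), while the shares of all probe sets rose to 9.03%, 8.95% and 11.7% (from 5.44%, 4.43% and 6.91%). The calls gained with BMP4 included 2 Slit2 and 1 Robo1 probe sets, all lower. The labels do not state that the numbers pair cultures, and between BMP4 and untreated arrays 1 pair did not deviate together. Leaving out 1 array at a time gave 19 to 33 calls with BMP4, 15 to 20 with TGF-β1 and 28 to 44 between the factors, beside 3.18% to 5.02%, 1.93% to 4.56% and 4.17% to 7.39% of all probe sets. Without the 3 arrays numbered 2, the counts were 19, 13 and 34 (2.66%, 1.97% and 4.04% of all probe sets), and with only the compared groups 23, 17 and 41 (3.59%, 2.6% and 6.37%). Quantile normalization, centring on array medians, array weights and leaving out probe sets shared between transcripts gave 34 to 38, 19 to 21 and 41 to 46. The shares of all probe sets were 5.34% to 5.85%, 4.29% to 4.9% and 6.72% to 8.32%. The methods' t-test gave 0, 0 and 0 after Benjamini-Hochberg adjustment, where it called 0, 0 and 11 of all 45037 probe sets. It gave 6, 2 and 7 at an unadjusted p under 0.05 with a 2-fold change, beside 0.961%, 0.562% and 1.21% of all probe sets. limma called 37, 19 and 43, and 64, 42 and 76 at an unadjusted p under 0.05, beside 7693, 8427 and 9029 of all probe sets. The cause of these changes was not tested. Of 46 calls on named genes, 29 held under each of the 9 left-out arrays, 30 held without the arrays numbered 2, and 0 reversed in any setting. Signal over background could not be read from centred values.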
